A study of Mus musculus with 73 samples.

Results

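The interferon-stimulated genes described here are 36 mouse genes that cells switch on when interferon reaches them. They were taken by name from a fixed list and not by a cutoff on any measured value, though with earlier results of these data known. In all, 28243 gene names had a value in at least 1 of 3 data sets from mouse jejunum. Of the members, 35 were among the 17399 genes of the epithelium, 35 among the 20882 of laser capture microdissection (LCM), and all 36 among the 21058 of the single cells. *Mx2* was not analysed here in the epithelium, nor *Isg15* in the LCM samples. The epithelial samples came from male Lgr5(GFP-ires-DTR/+) mice aged 4 months. In these mice every *Lgr5*-expressing cell, crypt stem cells and villus tip telocytes alike, carries the diphtheria toxin receptor and GFP, so the ablation was not limited to 1 cell type. The 4 treated mice received diphtheria toxin (DT, 50 µg/kg) and the 4 controls, which carried the same allele, received saline. Both groups were sampled at 48 h, with DT 1, DT 2, control 1 and control 2 in batch a and the others in batch b. The LCM and single-cell samples came from untreated C57BL/6 males aged 3 months. LCM stroma was cut from the crypt in 3 mice and from the villus bottom, center and tip in 5 mice. Single cells were sorted into plates by several gates from 8 mice, called A to H here.

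Interferons signal through receptors on the cell surface to JAK kinases and STAT transcription factors. Type I and type III interferons activate a complex with STAT2 and IRF9 that binds an interferon-stimulated response element (ISRE), whereas interferon gamma acts through a gamma-activated site (GAS). In the intestine, epithelial cells respond mainly to type III interferon and to interferon gamma, and the induced genes limit viral replication, sense foreign nucleic acid and feed peptides to MHC class I. The 36 genes cover the ubiquitin-like protein ISG15 and its protease, antiviral effectors, nucleic acid sensors, transcription factors, chemokines, interferon-inducible GTPases and antigen processing genes.

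RefSeq promoters, from 250 bases before to 50 bases after a start, were found for 29 of the 36 members, in the GRCm38.p6 build. The ISRE letters GAAANNGAAA, on either strand, were in the promoters of 15 of these 29 members (51.7%). Counted by start site, 15 of 35 member promoters (42.9%) held them, against 3.44% of 32851 promoters in the table. The GAS letters TTCNNNGAA, which read the same on both strands, were in 8 of 35 member promoters (22.9%) against 8.3% of all. ISRE and GAS letters overlapped in *Bst2*. The promoter windows of *Tap1* and *Psmb9* share 275 bases, and neither motif was found there. The 6 stretches below, from RefSeq, are shown because their genes stand in the main results and because they differ in the number and place of matches. Each is on the strand of its gene, 5′ to 3′, with the matched ISRE letters in capitals and GAS letters left in lower case.
*Isg15*, chr4:156200850-156200921, minus strand: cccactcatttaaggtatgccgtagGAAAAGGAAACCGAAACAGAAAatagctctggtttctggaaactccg
*Ifit1*, chr19:34640760-34640838, plus strand: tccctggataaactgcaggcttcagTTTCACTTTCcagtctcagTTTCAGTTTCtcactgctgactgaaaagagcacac
*Oas3*, chr5:120777700-120777759, minus strand: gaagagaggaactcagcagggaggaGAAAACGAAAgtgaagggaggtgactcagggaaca
*Stat2*, chr10:128270251-128270310, plus strand: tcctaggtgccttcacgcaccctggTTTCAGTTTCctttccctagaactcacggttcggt
*Gbp7*, chr3:142530258-142530317, plus strand: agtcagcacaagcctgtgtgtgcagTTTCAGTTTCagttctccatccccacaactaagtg
*Igtp*, chr11:58199497-58199555, plus strand: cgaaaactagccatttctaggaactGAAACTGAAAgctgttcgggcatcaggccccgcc
*Isg15* held 3 overlapping matches, the first beginning 78 bases before the start, and *Ifit1* held 2, beginning 104 and 85 bases before it. The match of *Igtp* lay 34 bases before the start and that of *Stat2* 222 bases before it. A match of letters is a description and does not show binding.

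**Figure D1:**
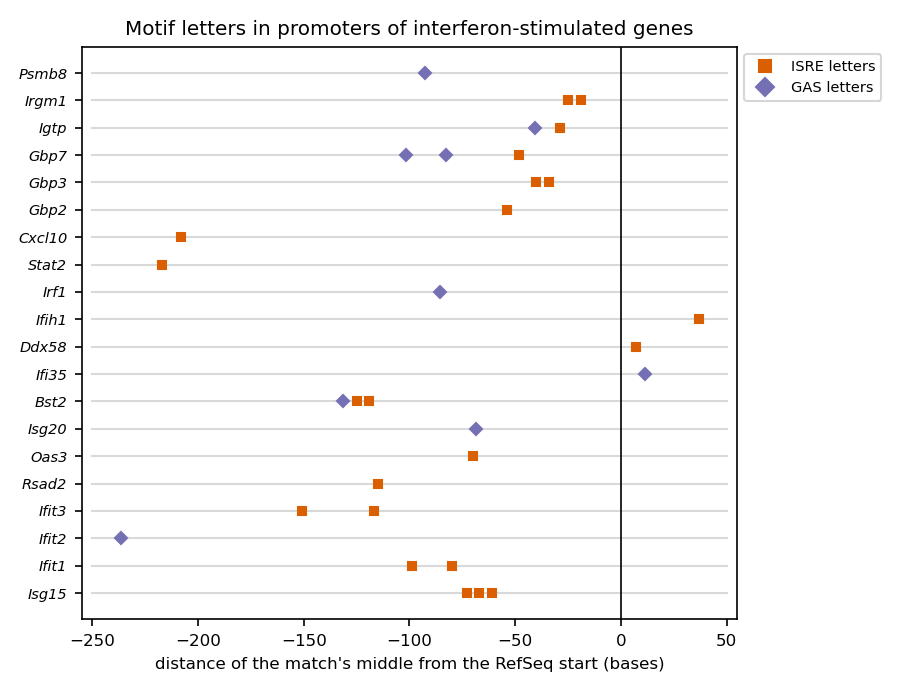
Position of ISRE letters (squares) and GAS letters (diamonds) in the promoters of the members that hold either, as the distance in bases of the middle of the match from the RefSeq start, which is the vertical line at 0. Most squares lie before the start, and *Isg15* has 3 of them.

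Not every member could be read everywhere. A member was taken as too low in the epithelium when it did not exceed 1e-05 of all UMIs in at least 2 samples, in the LCM samples when no zone mean exceeded 5 ppm, and in the single cells when it had under 10 UMIs. By these rules 26 members were readable in 3 data sets, 8 in 2 and 1 in 1. *Oas2*, which makes the activator of RNase L, was too low in all 3 data sets, with 50 UMIs in the epithelium and 8 in the single cells. *Ifit2*, an RNA-binding inhibitor of translation, was readable in the single cells alone, with 30 UMIs. In the epithelium the other members too low were *Isg20*, *Dhx58*, *Cxcl9*, *Cxcl10*, *Gbp2* and *Gbp3*, with 20 UMIs for *Cxcl9* and 127 for *Dhx58* as the lowest and highest totals among these.

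The epithelial libraries held 748458 to 4210158 UMIs. The Paneth cell list stood at 3698 to 12561 CPM (UMIs of a gene per 1e6 UMIs of the sample) in controls and at 786 to 1964 after DT, and 3 of its 6 genes tested fell. *Lgr5* itself, which is low in these samples, ranged from 11.2 to 69.5 CPM in controls and from 6.37 to 47.2 CPM after DT, and so did not separate the groups. Immune markers were present in every epithelial sample, with a summed level of 321 to 2340 CPM in controls and 186 to 1310 CPM after DT. None of the 12 immune genes was called. The 10 epithelial markers summed to 14019.5 to 22790 CPM in controls and 23984 to 34755 CPM after DT, so that every DT sample lay above every control, though none of the 10 was called by edgeR, and their part in the members' levels was not tested.

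The first comparison asked which interferon-stimulated genes differ in the epithelium after *Lgr5*+ cells are ablated. No member passed an adjusted p of 0.05. All 27 members that could be tested had a fitted log2 fold change (DT over control) below 0, from -1.54 for *Igtp* to -0.04 for *Ifi35*, with a median of -0.46. Over the 8986 genes tested the median was 0.00, and 49.5% lay below 0. With edgeR's quasi-likelihood test and Benjamini-Hochberg adjustment, 32 genes (0.356%) were called, 2 higher and 30 lower, and 0 of 27 members. DESeq2 also called 0 members, among 159 genes. At an unadjusted p below 0.05 there were 6 members, against 17.3% of all genes. In 0 members did all 4 DT values lie below all 4 control values, which 1.49% of all genes did.

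**Figure D2:**
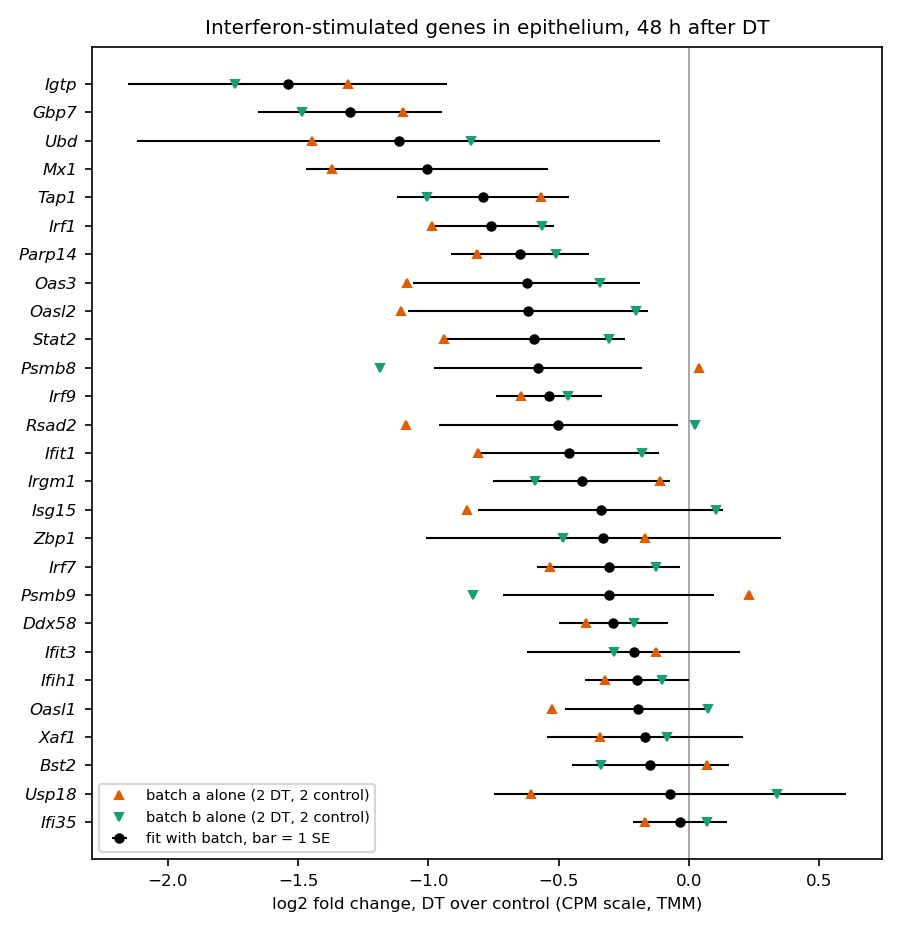
Log2 fold change, DT over control, for the 27 members tested in the epithelium. Black points and bars are the fit with batch and 1 SE, and triangles are the fits within batch a and batch b (no value for *Mx1* in batch b, where it was too low). All black points lie left of 0, and in batch b several triangles do not.

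The samples did not move in step. Control 1 was the highest of the 8 samples for 11 of the 27 members and control 3 for 9, whereas control 4 was the lowest for 7. DT 3 was the lowest for 16 members. The summed level of the 27 members tested was 2577, 1802, 2498 and 1197 CPM in controls 1 to 4 and 1716, 1464, 851 and 1781 CPM in DT 1 to 4. Control 4 thus lay below 3 of the 4 DT samples. The immune list was highest in control 3, at 2340 CPM, and lowest in DT 2, at 186 CPM, while DT 3, the lowest for members, had 1310 CPM. The part of immune cells in the members' levels was not tested, and fewer cells of a type and less RNA per cell cannot be told apart in bulk samples. Within batch a, 24 of 27 members were below 0, with a median of -0.61. Within batch b 21 of 26 were, with a median of -0.32, and 18 of the 26 were below 0 in both. The median was -0.18 without control 3, -0.19 without DT 3 and -0.85 without DT 4, and 0 members were called in each case.

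Among the interferon-inducible GTPases, which assemble on the membranes of vacuoles that hold pathogens, all 3 members tested were below 0. *Gbp7*, a guanylate-binding protein, had 35.2, 20.04, 26.8 and 13.2 CPM in controls 1 to 4 and 20.2, 9.19, 4.51 and 11.01 CPM in DT 1 to 4. Controls 1 and 3 lay above every DT sample, whereas controls 2 and 4 lay below DT 1. The log2 fold change was -1.30 ± 0.35 (SE), with an adjusted p of 0.185 by edgeR. *Igtp*, whose product IRGM3 guards vacuoles, had 96.7, 18.7, 117 and 33.6 CPM in controls and 32.9, 19.3, 10.1 and 38.3 CPM after DT. Controls 1 and 3 stood far above all other samples, and controls 2 and 4 lay among the DT samples. Its log2 fold change was -1.54 ± 0.61 (SE, adjusted p of 0.261 by edgeR). *Irgm1*, a regulator of the other IRG proteins, gave -0.41 ± 0.34 (SE).

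The 4 transcription factors of the list had a median log2 fold change of -0.56. *Irf1*, which drives genes induced by interferon gamma, had 284, 269, 204 and 108 CPM in controls and 190, 112, 90.0 and 127 CPM after DT. Controls 1, 2 and 3 lay above every DT sample and control 4 did not. Its log2 fold change was -0.76 ± 0.24 (SE, adjusted p of 0.222 by edgeR). *Irf9*, the DNA-binding subunit of the ISRE complex, had 57.3, 62.8, 43.2 and 28.2 CPM in controls and 44.7, 37.7, 21.0 and 33.0 CPM after DT, with a log2 fold change of -0.54 ± 0.20 (SE, adjusted p of 0.233 by edgeR). *Irf9* overlaps *Rnf31*, *Igtp* overlaps *Irgm2*, and *Gbp7* and *Parp14* overlap predicted genes on the same strand, so the division of their reads is uncertain. *Stat2*, the partner of IRF9, gave -0.59 ± 0.35 (SE) and *Irf7*, the amplifier of the type I response, -0.31 ± 0.28 (SE).

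In antigen processing, *Tap1*, a subunit of the peptide transporter of the endoplasmic reticulum, had 119, 49.4, 125 and 58.9 CPM in controls and 70.8, 52.7, 28.9 and 66.9 CPM after DT. Controls 1 and 3 were high, and controls 2 and 4 overlapped the DT samples. Its log2 fold change was -0.79 ± 0.33 (SE, adjusted p of 0.257 by edgeR). The immunoproteasome subunits *Psmb8* and *Psmb9* were above 0 in batch a, at 0.04 and 0.23, and below 0 in batch b, at -1.18 and -0.83. *Ubd*, the ubiquitin-like modifier FAT10, ranged from 26.6 to 177 CPM in controls and from 1.59 to 100 CPM after DT, with the largest ratio of highest to lowest among the tested members after DT, and gave -1.11 ± 1.00 (SE).

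The 8 antiviral effectors tested had a median of -0.48 on the log2 scale. *Mx1*, of the dynamin-like GTPase family, had the lowest value of them, -1.01 ± 0.46 (SE). It had 157 UMIs in all and was too low to fit in batch b alone. *Oas3*, which makes 2′-5′ oligoadenylate, gave -0.62 ± 0.44, *Oasl2* -0.62 ± 0.46, *Rsad2* (viperin) -0.50 ± 0.46 and *Ifit1* -0.46 ± 0.34 (all SE). *Isg15* gave -0.34 ± 0.47 and its protease *Usp18* -0.07 ± 0.68. The CPM means of *Usp18* were close, 23.0 ± 17.2 in controls and 23.1 ± 15.5 after DT (SD, n = 4). Of the sensors, *Ddx58* (RIG-I) gave -0.29 ± 0.21, *Ifih1* (MDA5) -0.20 ± 0.20 and *Zbp1*, a sensor of Z-form nucleic acid, -0.33 ± 0.68. *Parp14*, an ADP-ribosyltransferase, had 220, 295, 89.5 and 46.5 CPM in controls and 201, 116, 35.8 and 63.4 CPM after DT. Its batches differed more than its groups, and its log2 fold change was -0.65 ± 0.26 (SE, adjusted p of 0.248 by edgeR).

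**Figure D3:**
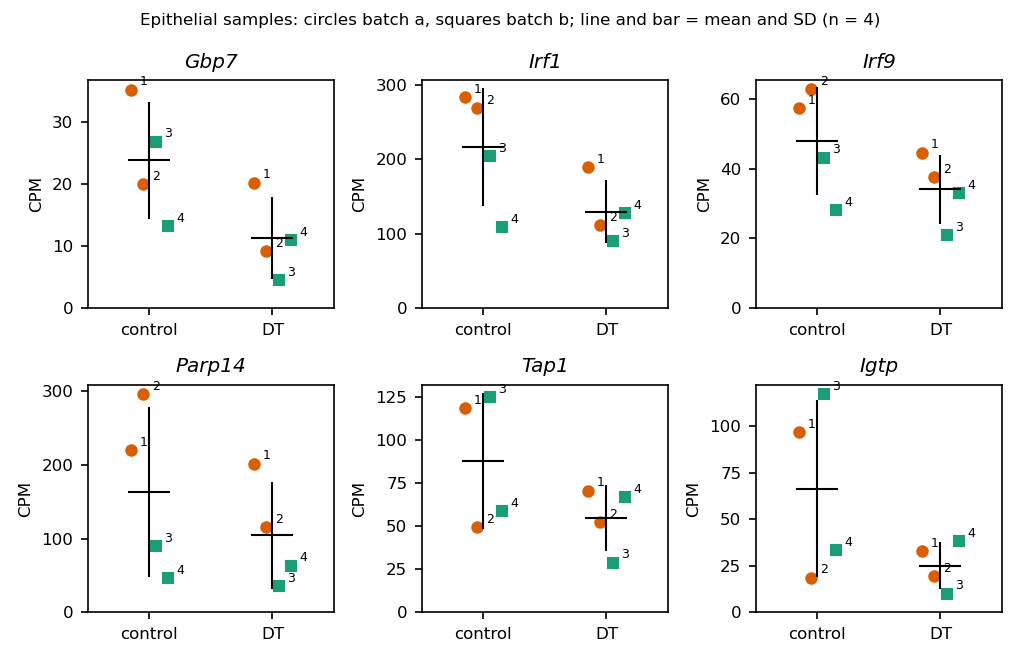
Level in CPM in each epithelial sample for the 6 members with the smallest p. Numbers mark mice, circles batch a, squares batch b, and lines with bars the mean and SD of 4. Control 4 lies among the DT samples in every panel.

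The other genes of the interferon pathway, a list of 72 with 57 tested, gave 0 calls and 19 at an unadjusted p below 0.05 (17.3% over all genes), 47 below 0 (49.5% over all genes) and a median of -0.38. The remaining 10 were above 0. Among them *Ifitm3* gave 1.29 ± 0.44 (SE, adjusted p of 0.232 by edgeR) and *Ifitm2* 0.89 ± 0.34 (SE, adjusted p of 0.238 by edgeR). Both were above 0 in each batch. Of the receptors, *Ifnar1* gave -0.10, *Ifngr1* 0.02 and *Ifnlr1* -0.61. *Irf3*, which acts before interferon is made, gave -0.08 and the MHC class I light chain *B2m* -0.35. *Ifng* and the MHC class I regulator *Nlrc5* were too low. One choice of processing changed the members' calls. Without the filter on low counts, 6 members were called lower (*Igtp*, *Ubd*, *Gbp7*, *Tap1*, *Irf1* and *Mx1*), when 635 of 15502 genes (4.1%) were called. These 6 had also been tested with the filter, and their fold changes were close in both fits. What differed was the SE, which was smaller without the filter. For *Ubd* it was 0.22 without and 1.00 with the filter, and for *Igtp* 0.23 and 0.61.

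The LCM samples addressed where along the crypt-villus axis the stroma holds these transcripts. Values for a mouse and zone are in ppm, which is TPM without 378 of the genes that together made up 50% of the control epithelium's UMIs, rescaled to 1e6 for the sum of the genes that each held under 1%, and the depth behind them is unknown, since TPM keeps no read number. Over the 4 zones limma called 0 of 13535 genes (0%), and 0 of the 33 members tested. At an unadjusted p below 0.05 there were 0 members in this test, against 4.06% of genes. The highest zone mean fell at the villus center for 15 members, at the bottom for 9, in the crypt for 5 and at the tip for 4.

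Between tip and crypt, limma called 0 genes (0%) and 0 members, with 0 members at an unadjusted p below 0.05 against 3.26% of genes. Here 23 of 33 members were below 0 against 48.5% of all genes, with a median of -0.48 against 0.04. With the mouse as a block the members' median was -0.21 and 17 were below 0. Between tip and villus bottom, limma called 0 genes (0%) and 0 members, and 2 members had an unadjusted p below 0.05 against 4.58% of genes. In this comparison 27 of 33 members were below 0, against 52.3% of all genes, and the median was -0.68 against -0.06. The fold changes are on the log2(ppm + 1) scale, which understates those of low genes.

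*Igtp*, the GTPase IRGM3, had the smallest p of the members between tip and bottom. It had 15.2, 133, 71.0, 31.8 and 12.2 ppm at the bottom in mice 1 to 5 and 14.2, 0.00, 23.7, 1.84 and 1.61 ppm at the tip. Its tip value was the lower in 5 of 5 mice, although the zones overlapped in their ranges. The log2 difference, tip minus bottom, was -2.91 (95% interval -5.06 to -0.765, exact permutation p = 0.0397, adjusted p of 0.99 by limma). At the center it had 81.9, 34.6, 19.0, 0.88 and 35.5 ppm, and in the crypt 6.45, 6.69 and 37.2 ppm in mice 1 to 3.

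*Gbp2*, a guanylate-binding protein induced mainly by interferon gamma, had 3.46, 40.3, 41.2, 43.9 and 48.0 ppm at the bottom and 7.15, 8.15, 4.49, 2.42 and 3.32 ppm at the tip. Only mouse 1 had the higher value at the tip. The log2 difference was -2.29 (95% interval -4.49 to -0.10, exact permutation p = 0.0317, adjusted p of 0.99 by limma). *Isg20*, an exonuclease, had 16.0, 34.2, 21.1, 13.9 and 8.46 ppm at the bottom and 2.88, 0.00, 19.6, 12.3 and 2.73 ppm at the tip, the lower value in 5 of 5 mice. *Bst2*, the tetherin that holds budding virions at the membrane, had 81.6, 337, 121, 79.0 and 137 ppm at the bottom and 230, 59.1, 53.4, 0.00 and 52.2 ppm at the tip, where mouse 1 went the other way. The log2 differences, tip minus bottom, were -1.77 for *Isg20* and -1.97 for *Bst2*. *Gbp3* had 9.53, 24.6, 26.3, 6.27 and 5.46 ppm at the bottom and 1.31, 0.00, 34.6, 1.39 and 1.06 ppm at the tip, where mouse 3 alone had the higher value. It gave -1.95, and *Cxcl10*, a chemokine for CXCR3+ T cells, -2.67, and the 95% intervals of all 4 included 0.

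*Cxcl10* had 26.5, 53.6, 96.6, 0.00 and 274 ppm at the bottom and 49.95, 0.00, 15.4, 3.62 and 0.00 ppm at the tip, so that single mice set its zone means. *Cxcl9*, its close relative, had 0.70, 43.6, 77.1, 0.84 and 17.6 ppm at the bottom and at most 2.12 ppm at the center. *Tap1* had 38.8, 76.6, 62.3, 88.3 and 49.4 ppm at the bottom against 28.2, 27.7, 45.5, 41.1 and 11.2 ppm at the tip. It was lower at the tip in 5 of 5 mice (exact permutation p = 0.0238). By limma, however, its log2 difference, tip minus bottom, was -1.09 (confidence interval -2.98 to 0.79, adjusted p of 0.99), and it was not called. The exact test took the zones as separate groups and did not pair them by mouse, although the same mice gave both. Run in that way, it allows no p below 0.0179 for 3 against 5 mice and 0.00794 for 5 against 5, before any correction. *Usp18* had 10.1, 126, 186, 19.8 and 4.83 ppm at the center and 7.97, 0.00, 0.31, 5.19 and 6.41 ppm at the tip, where it was below the bottom value in 3 of 5 mice.

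**Figure D4:**
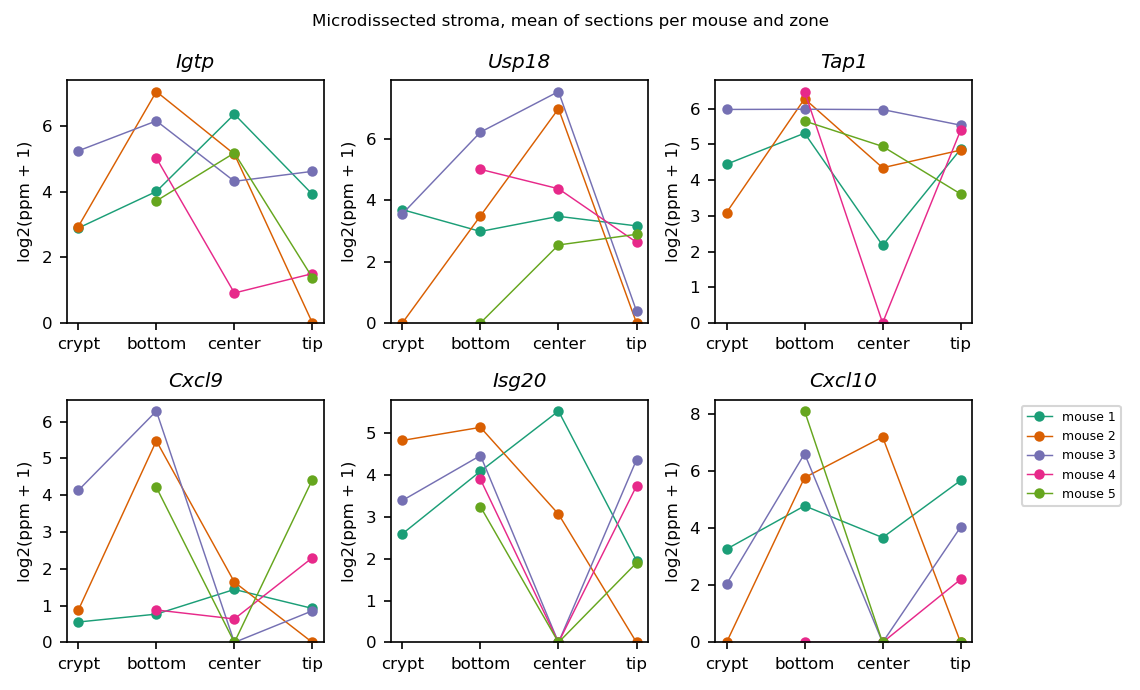
Level on the log2(ppm + 1) scale for the 6 members with the smallest p over the 4 zones, by zone, with a line for each mouse (crypt in mice 1 to 3 only). Lines cross in every panel, and for *Igtp*, *Tap1* and *Isg20* the tip value lies below the bottom value in every mouse.

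Other members followed other zones. For *Ddx58* the 5 tip values averaged 684 ± 415 ppm and the 3 crypt values 311 ± 197 ppm (SD), and for *Stat2* 503 ± 369 and 194 ± 132 ppm. Both were highest at the tip, but with log2 differences, tip minus crypt, of 0.97 (95% interval -0.96 to 2.90) and 1.00 (-1.08 to 3.09). *Ifi35* had 143, 92.1 and 49.6 ppm in the crypt and 187, 14.1, 21.6, 1.77 and 20.1 ppm at the tip, where mouse 1 alone was above every crypt value. *Ifit1* had 126, 210 and 79.8 ppm in the crypt and 54.3, 105, 66.6, 23.1 and 96.3 ppm at the tip, with ranges that overlapped. *Ifit3* had 2.67, 106 and 7.15 ppm in the crypt and 20.3, 3.98, 0.00, 1.08 and 7.83 ppm at the tip, and *Irgm1* 7.79, 16.2 and 33.9 ppm and 88.0, 18.3, 22.4, 17.1 and 97.3 ppm. *Gbp3* had 7.79, 6.63 and 12.9 ppm in the crypt, above 4 of its 5 tip values. The log2 differences, tip minus crypt, were -1.56 for *Gbp3*, -2.09 for *Ifi35*, -1.06 for *Ifit1*, -1.69 for *Ifit3* and 1.10 for *Irgm1*, again with intervals that included 0. *Irf1* had the highest zone mean at the center, 493 ± 943 ppm (SD, n = 5), where mouse 2 alone had 2179 ppm and the other 4 had 17.9 to 108 ppm. Mouse 2 at the tip had 12 members at 0, and mouse 4 at the center had 10. An exact 0 in these values can be a failed estimate.

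The summed immune markers also differed along the axis, with a mean of 1319 ppm in the crypt, 2321 at the bottom, 1825 at the center and 641 at the tip. The B and plasma cell list went from 19887 ppm at the bottom to 2386 ppm at the tip, the macrophage and dendritic list from 399 to 103 ppm, and the endothelial list from 2041 to 2213 ppm. Epithelial markers had means of 18531, 28595, 18214 and 13503 ppm in the crypt, bottom, center and tip, and mesenchymal markers 765, 532, 987 and 290 ppm. Paneth cell markers, which belong to the crypt, averaged 60779 ppm over crypt samples and 86944 ppm over tip samples, which ranged from 12.3 to 241392 ppm. The part of these cells in the members' levels was not tested. Of the other pathway genes 54 were tested and 0 were called, with 2, 2 and 3 at an unadjusted p below 0.05 over all zones, between tip and crypt and between tip and bottom. *B2m*, *H2-K1*, *H2-D1* and some other abundant pathway genes were among those left out as high in the epithelium, and so were not tested. With those genes kept, *B2m* averaged 3280 ppm in the crypt, 3696 at the bottom, 3841 at the center and 3052 at the tip.

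The single cells showed which cell classes carry the transcripts in untreated mice. Of the sorted cells, 2347 passed the filters and fell into 3 classes named from markers: 1815 epithelial-like cells from 8 mice, 200 immune-like and 332 mesenchymal-like. The immune-like sums came from mice B and C, and the mesenchymal-like sums from mice A, B, E and G. The epithelial-like class included a cluster led by Paneth cell genes, one led by goblet cell genes and one led by mitochondrial genes. The immune-like cells carried intraepithelial lymphocyte markers at 4899 UMIs per 1e5 and macrophage and dendritic markers at 6.50 per 1e5. Epithelial markers stood at 0.45% of their epithelial-like level in immune-like cells and at 1.81% in mesenchymal-like cells. Median depth was 1601, 666.5 and 1024.5 UMIs per cell in epithelial-like, immune-like and mesenchymal-like cells, and 683 cells came from gates set for doublets, 599 of them epithelial-like and 83 mesenchymal-like. Plates reuse the well barcodes, so 377 of 380 barcodes occurred in several plates. The genes of the list were kept out of the clustering.

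In the edgeR fit *Irf7*, *Ifi35*, *Oasl1* and *Ubd* were called lower in immune-like and mesenchymal-like than in epithelial-like cells. *Gbp2*, *Isg20* and *Bst2* were called higher in both classes. The immune-like class came from 2 mice, and there the calls of *Irf7*, *Oasl1*, *Isg20* and *Bst2* did not hold under every alternative. Epithelial-like sums held 3918516 UMIs, immune-like sums 153903 and mesenchymal-like sums 396688. The total UMIs of a member thus mostly follow its level in epithelial-like cells. UMIs were summed per mouse and class and compared with edgeR. The trimmed-mean (TMM) scaling factors were 0.55 to 1.29 for epithelial-like sums, 1.27 and 1.35 for immune-like sums, and 0.86 to 4.28 for mesenchymal-like sums. With TMM the median log2 fold change of all genes was -0.82 between immune-like and epithelial-like cells and -0.30 between mesenchymal-like and epithelial-like cells, where scaling by total UMIs alone gave 0.00 and 0.35. Levels below are UMIs of a gene per 1e5 UMIs, without TMM, and log2 fold changes are with it. Folds given as at least a value compare levels and are without TMM.

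Between immune-like and epithelial-like cells 14 of 35 members were called, against 22.4% of 12931 genes, 4 higher (6.72% of genes) and 10 lower (15.7% of genes). Scaling by totals left 4 higher and 4 lower, and with the mouse as a block 2 were higher and 6 lower, while over all genes the split of 869 higher and 2034 lower calls became 2112 and 1208 by totals. The calls that totals ended were those of *Ifit1*, *Irf7*, *Isg15*, *Parp14*, *Stat2* and *Usp18*, and those that the block ended were those of *Bst2*, *Gbp7*, *Ifit1*, *Isg15*, *Stat2* and *Usp18*. The members' median was -0.93 against -0.82 over all genes. Between mesenchymal-like and epithelial-like cells 22 of 35 were called, against 34.8% of genes, 7 higher (15.7%) and 15 lower (19.1%), by totals 8 and 10, and with the mouse as a block 3 and 13. All genes split 2028 to 2471 with TMM and 3230 to 1587 by totals. Here totals ended the calls of *Ifih1*, *Irf1*, *Oasl2*, *Parp14* and *Stat2* and added *Ifit3*, and the block ended those of *Cxcl9*, *Cxcl10*, *Gbp3*, *Gbp7*, *Oasl2* and *Stat2*. The members' median here was -1.22 against -0.30. Between immune-like and mesenchymal-like cells 3 of 35 were called, 1 higher (3.12% of genes) and 2 lower (6.94%), against 10.1% of genes in either direction, and none with the mouse as a block by edgeR, when 4 members had an unadjusted p below 0.05 and DESeq2 without the block called 2.

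**Figure D5:**
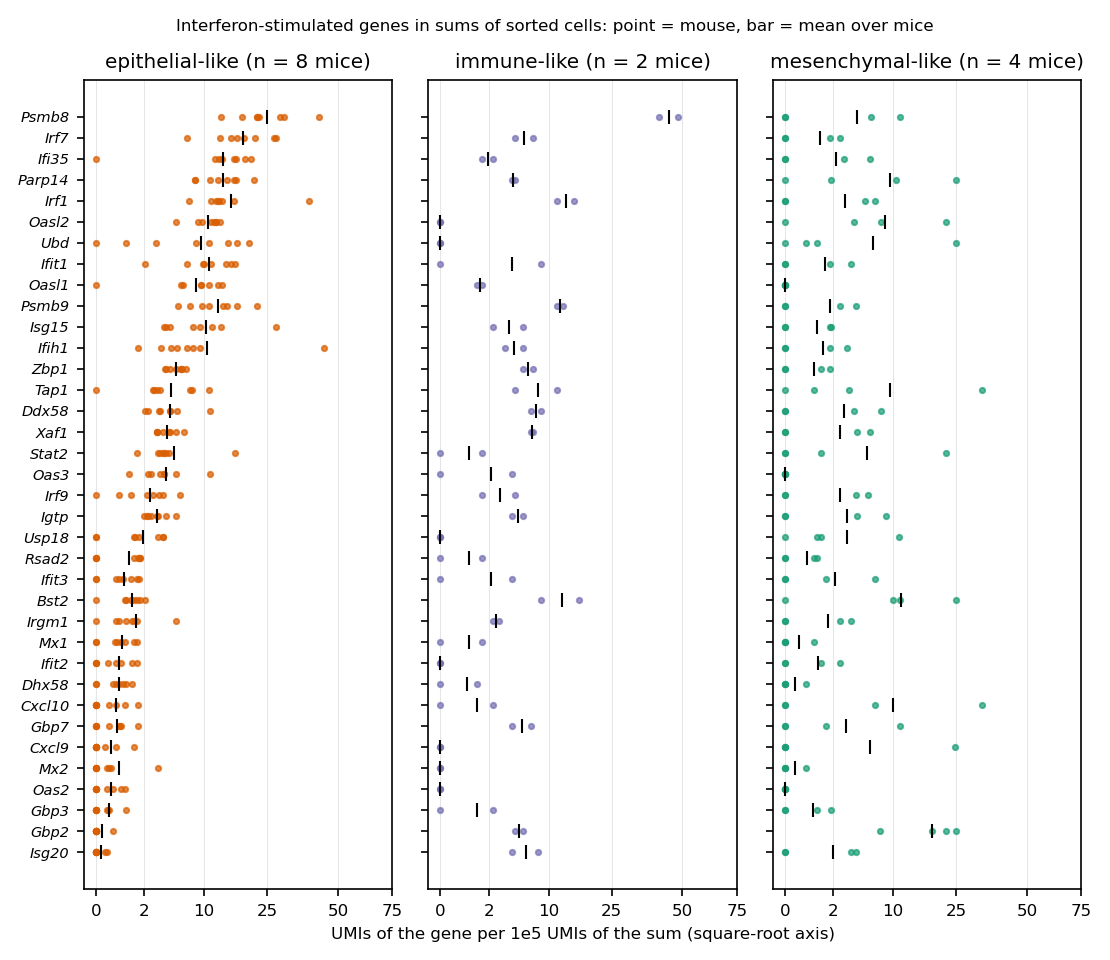
Level of each of the 36 members, in UMIs per 1e5 UMIs on a square-root axis, in sums of epithelial-like, immune-like and mesenchymal-like cells. Points are mice and bars are means over mice. *Psmb8* is the highest in both epithelial-like and immune-like cells, and *Gbp2*, near 0 in epithelial-like cells, is at 7.78 to 25.1 in mesenchymal-like cells, where 1 UMI counts for 25.1 in the small sum of mouse B and for 11.1 in that of mouse E.

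Of the guanylate-binding GTPases, *Gbp2* held its calls in both comparisons with epithelial-like cells under both scalings and the block. It had 0.00 as its median and 0.26 as its highest level in 8 epithelial-like sums, 5.82 and 4.70 in the immune-like sums of mice B and C, and 18.4, 25.1, 22.2 and 7.78 in the mesenchymal-like sums of mice A, B, E and G. The classes did not overlap. Its log2 fold change against epithelial-like cells was 4.38 ± 0.98 for the immune-like and 5.90 ± 0.71 for the mesenchymal-like class (SE). *Gbp7* had 0.00 to 1.55 with a median of 0.30 in epithelial-like sums and 4.36 and 7.05 in immune-like sums. Its 17 UMIs in mesenchymal-like cells came from mice A and G, of which mouse A gave 11.4 per 1e5 and mouse G 1.48. Its calls, 2.77 ± 0.86 and 2.82 ± 0.73 (SE), were lost with the block, and that in mesenchymal-like cells also without cells from doublet gates or without mouse A. *Gbp3*, with 13 UMIs in all, was called higher in mesenchymal-like cells, at 2.44 ± 0.97 (SE), and was not called in immune-like cells. The call was lost with the block, with DESeq2, without doublet gates and without mouse A or G, among others. *Igtp* and *Irgm1* had fitted values between -0.12 and 0.93 against epithelial-like cells, with no call.

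*Bst2* and *Isg20* were the 2 effectors called higher in both classes than in epithelial-like cells. *Bst2* had a median of 1.16 and a highest level of 2.08 in epithelial-like sums, 8.72 and 16.4 in immune-like sums, and 11.4, 25.1, 0.00 and 10.0 in mesenchymal-like sums. Its log2 fold changes were 2.32 ± 0.65 and 2.23 ± 0.55 (SE), the former not called with the block or without mouse C. *Isg20* had 2 UMIs in 1815 epithelial-like cells, and 10 and 15 in immune-like and mesenchymal-like cells. Its levels were 4.36 and 8.22 in immune-like sums and 4.39, 0.00, 0.00 and 3.71 in mesenchymal-like sums, against at most 0.11 in epithelial-like sums. Both differences were called by edgeR, though DESeq2 did not call that in immune-like cells.

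*Oasl1*, a relative of the oligoadenylate synthases, was called lower in both classes than in epithelial-like cells. It ranged from 0.00 to 13.5 over 8 epithelial-like sums with a median of 9.44, had 1.45 and 1.17 in immune-like sums, and had 0 UMIs in the mesenchymal-like sums. Only mouse D, with the smallest epithelial-like sum, was at 0. Against the floor of 3 UMIs over the group, 0.756 per 1e5, *Oasl1* was at least 14.8-fold lower in mesenchymal-like cells. In immune-like cells its log2 fold change was -3.78 ± 0.98 (SE), a call lost without mouse C, which left mouse B alone in that class. *Oasl2* had 5.54 to 13.2 in epithelial-like sums, with a median of 11.6, and 0 UMIs in immune-like cells, at least 6.06-fold lower. In mesenchymal-like sums *Oasl2* had 7.90, 0.00, 22.2 and 4.08, where 22.2 was 2 UMIs of mouse E. It was called at -1.52 ± 0.59 (SE) against epithelial-like cells, a call lost by totals, with the block and without any 1 mouse other than D, among others. *Oasl2* was also called lower in immune-like than in mesenchymal-like cells, at least 2.85-fold. That call was lost with the block, without doublet gates and without mouse B or C. *Oas3* had 0.94 to 11.1 with a median of 3.76 in epithelial-like sums and 0 UMIs in mesenchymal-like cells, at least 4.69-fold lower, and its 3 UMIs in immune-like cells came from 1 cell, with no call there. These paralogs have similar sequences, and how reads between them were divided is uncertain.

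*Isg15* had 3.93 to 27.7 in epithelial-like sums with a median of 8.66, 5.82 and 2.35 in immune-like sums and 1.76, 0.00, 0.00 and 1.85 in mesenchymal-like sums. In mesenchymal-like cells all sums lay below the lowest epithelial-like one, and the log2 fold change was -2.87 ± 0.71 (SE). The call in immune-like cells, -2.06 ± 0.80 (SE), was lost by totals, with the block and without any 1 of the 8 mice. *Usp18* had 0.00 to 3.88 with a median of 1.43 in epithelial-like sums, 0.88, 0.00, 11.1 and 1.11 in mesenchymal-like sums and 0 UMIs in immune-like cells, which allows up to 1.95 per 1e5, above its epithelial-like level of 1.63, so no fold is given beside its call, which totals and the block ended. *Ifit1* was called lower in both classes, at -2.28 ± 0.80 and -2.46 ± 0.65 (SE). It had 2.08 to 16.6 with a median of 10.6 in epithelial-like sums, 8.72 and 0.00 in immune-like sums and 1.76, 0.00, 0.00 and 3.71 in mesenchymal-like sums, which overlapped the epithelial-like ones in both classes. *Ifit3*, *Rsad2*, *Mx1* and *Mx2* had 13 to 60 UMIs in all and were not called in any comparison with TMM, nor was *Ifit2*, with 0.00 to 1.44 in epithelial-like sums, 0 UMIs in immune-like cells and 2.63, 0.00, 0.00 and 1.11 in mesenchymal-like sums.

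Among the transcription factors, *Irf7* was the member with the most UMIs in epithelial-like cells after *Psmb8*. It had 7.05 to 27.7 with a median of 17.9 in epithelial-like sums, 7.27 and 4.70 in immune-like sums and 1.76, 0.00, 0.00 and 2.59 in mesenchymal-like sums, which lay below all epithelial-like ones. The log2 fold change was -3.60 ± 0.71 in mesenchymal-like and -2.52 ± 0.79 in immune-like cells (SE), the latter lost when scaled by totals or without mouse B or C. *Irf1* had 11.6 and 15.3 in immune-like sums against 7.398 to 38.8 with a median of 12.9 in epithelial-like sums, with no call, and 7.02, 0.00, 0.00 and 5.56 in mesenchymal-like sums, called at -1.92 ± 0.60 (SE). *Irf9* was not called in any comparison. *Stat2* was called lower in both classes, at -3.41 ± 1.17 and -2.05 ± 0.79 (SE), on 1 and 5 UMIs. Its epithelial-like sums had 1.41 to 16.6 with a median of 3.90, the immune-like ones 1.45 and 0.00, and the mesenchymal-like ones 0.00, 0.00, 22.2 and 1.11, where mouse E was above every other sum on 2 UMIs.

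*Psmb8* had the most UMIs of all members, 1013. It had 13.3 to 42.6 with a median of 22.5 in epithelial-like sums, 40.7 and 48.2 in immune-like sums and 11.4, 0.00, 0.00 and 6.30 in mesenchymal-like sums. The immune-like level was 1.92-fold the epithelial-like one, but with TMM the log2 fold change was -0.09 ± 0.63 (SE), so its direction turned with the scaling and it was not called. It was the member called higher in immune-like than in mesenchymal-like cells, by 2.31 ± 0.74 (SE), a call that the block ended. In mesenchymal-like cells *Psmb8* and *Psmb9* were called lower than in epithelial-like cells, at -2.40 ± 0.61 and -2.50 ± 0.66 (SE). *Psmb9* had 5.72 to 22.2 with a median of 12.3 in epithelial-like sums, 11.6 and 12.9 in immune-like sums and 4.39, 0.00, 0.00 and 2.59 in mesenchymal-like sums, which lay below all others. *Ubd* had 0.00 to 20.1 with a median of 9.67 in epithelial-like sums and 0 UMIs in immune-like cells, at least 5.97-fold lower. In mesenchymal-like sums *Ubd* had 0.88, 25.1, 0.00 and 0.37, where 25.1 was 1 UMI in 5 cells of mouse B, and the log2 fold change was -4.07 ± 0.84 (SE). *Tap1* was not called.

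Of the remaining members, *Ifi35* had 0.00 to 20.4 with a median of 14.9 in epithelial-like sums, where only mouse D was at 0, against 1.45 and 2.35 in immune-like and 6.15, 0.00, 0.00 and 2.97 in mesenchymal-like sums. It was called at -3.87 ± 0.94 and -2.59 ± 0.64 (SE). *Parp14* had 8.32 to 21.3 with a median of 13.7 in epithelial-like sums, 4.36 and 4.70 in immune-like sums, and 10.5, 25.1, 0.00 and 1.85 in mesenchymal-like sums. It was called at -2.53 ± 0.80 and -2.002 ± 0.62 (SE), and totals ended both calls. The sensors *Ifih1* and *Zbp1* were called lower in mesenchymal-like cells alone, at -2.04 ± 0.66 and -2.69 ± 0.76 (SE). Whether they differed between the other classes beyond error was not shown. *Ddx58* and *Dhx58* were not called, nor was *Xaf1*.

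The chemokines had few UMIs. The 28 UMIs of *Cxcl9* in mesenchymal-like cells came from 3 cells of mouse A, 12 of them from 1 cell, and none remained without cells from doublet gates. Epithelial-like sums had 0.00 to 1.22 with a median of 0.00, and the mesenchymal-like sum of mouse A had 24.6. The fitted log2 fold change against epithelial-like cells was 3.85 ± 0.68 (SE), but -2.96 without cells from doublet gates and -3.12 without mouse A. Against immune-like cells, which had 0 UMIs, the 28 UMIs put *Cxcl9* at least 3.62-fold higher in mesenchymal-like cells, but this too rests on the 3 cells of mouse A, as the other 3 mesenchymal-like sums were 0. That call was lost by totals, with DESeq2 size factors, with the block, without doublet gates and without mouse A, B or C, and the difference was 0.00 without doublet gates or mouse A. *Cxcl10* had 11 UMIs in 3 mesenchymal-like cells, 17 in epithelial-like and 2 in immune-like cells. It was called higher in mesenchymal-like than in epithelial-like cells, at 2.70 ± 0.82 (SE). That call was lost with the block, with DESeq2, without doublet gates and without mouse A or E.

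Of the other pathway genes 62 were tested, and 23 were called between immune-like and epithelial-like cells (7 higher, 16 lower, beside 22.4% of all genes), 37 between mesenchymal-like and epithelial-like cells (9 higher, 28 lower, beside 34.8%) and 8 between immune-like and mesenchymal-like cells (2 higher, 6 lower, beside 10.1%). *Ifitm3*, which blocks viral fusion, had 402 UMIs in mesenchymal-like cells against 89 in epithelial-like and 0 in immune-like cells. *Nlrc5* was higher in immune-like than in epithelial-like cells, with 6.50 against 0.23 per 1e5 and a log2 fold change of 3.38 (adjusted p of 0.00187 by edgeR). The subunit *Ifnlr1*, which makes a cell responsive to type III interferon, had 37 UMIs in epithelial-like and 0 in the other cells. A count of 0 allows up to 1.95 per 1e5 in immune-like and 0.756 per 1e5 in mesenchymal-like cells. The 0 UMIs alone therefore do not show a lower *Ifnlr1* level in immune-like cells. *Ifng* was seen as 2 UMIs, both in immune-like cells. *B2m* stood at 294, 323 and 225 per 1e5 in epithelial-like, immune-like and mesenchymal-like cells.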

How the data were processed

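Mouse jejunum was profiled as isolated epithelium (mcSCRB-seq), LCM stroma (SMART-seq) and sorted single cells (MARS-seq). The deposited values were UMI counts made by the authors with zUMIs for the epithelium, raw UMI counts per well for the single cells, and TPM that the authors computed on coding transcripts with kallisto and sleuth for 29 LCM sections. The submitters' processing notes name bcl2fastq 2.15.0.4 and GRCm38. The authors' subtraction of empty-well background was not repeated.

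Members and gene lists were chosen with earlier results of these data known. Epithelial counts were tested with edgeR 4.0.16 (quasi-likelihood, TMM, batch term) for genes above 1e-05 of UMIs (10 CPM) in at least 2 samples. LCM sections were averaged per mouse and zone (18 means), 378 of the genes that make up 50% of control epithelial UMIs, ribosomal and mitochondrial genes apart, were removed, values were scaled to the sum of genes each under 1% of a sample, and log2(ppm + 1) was fitted with limma 3.58.1 for genes with a zone mean above 5 ppm. Depth of TPM is unknown. Of 12698 wells, 352 of 1 plate matched no sample and were not used. Wells between 400 and 8000 UMIs that showed 250 genes or more were clustered with Seurat 5.3.0 (21 clusters), classed by marker lists, and summed per mouse where a class had at least 5 cells. No doublet caller was run, and sums without doublet gates were an alternative. Genes with at least 10 UMIs were tested with edgeR. Adjusted p-values are Benjamini-Hochberg over all genes tested, with a threshold of 0.05. Exact permutation tests were two-sided and did not pair the zones by mouse. P-values treat mice, not cells or sections, as the replicates, with the error pooled over groups, zones or classes. The main LCM and single-cell fits had no mouse term. For the immune-like class, with 2 mice, the p-values also draw on the spread within the other classes. Floors of 3 counts cover counting error only. Scripts were tested on simulated data, and DESeq2 1.42.0 was an alternative.

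Values in every sample, or the lowest, median and highest of the 8 epithelial-like sums, are given for members past the threshold (at most 14 by smallest p), for the 6 with the smallest p where fewer passed, and for the 6 with most UMIs. Pathway genes are those past the threshold and 8 chosen by name, of which 1 is not reported here. LCM zones and cell classes of 1 mouse come from the same animal, so the mouse pairs them, with correlations of deviations from -0.07 to 0.47 between zones and from -0.04 to 0.13 between classes. In the epithelium same-numbered samples shared a batch and correlated at 0.41 to 0.66, and at -0.16 and -0.06 once batch means were taken out. Batches are the letters in the study's supplementary count table, which does not say what the batches were, and the labels give none. Alternatives were other scalings, filters, batch or block terms, pseudocounts, and leaving out each mouse. Columns of the authors' own comparisons were not used.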

Additional observations from a re-analysis of the deposited data

Results flagged for a closer look

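Samples that stood far from the others of their group, by Dixon's criterion at 95%, are given here as values. Chance alone flags about 1 in 20 groups, and many groups were tested.

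In the LCM samples, at the villus bottom, *Bst2* had 337 ppm in mouse 2, *Gbp2* 3.46 ppm in mouse 1, *Ifi35* 878 ppm in mouse 1 and *Ifit3* 36.7 ppm in mouse 3. At the center, *Cxcl10* had 145 ppm and *Ifit3* 121 ppm in mouse 2, and *Isg20* had 45.1 ppm in mouse 1. At the tip, *Bst2* had 230 ppm and *Ifi35* 187 ppm in mouse 1, *Gbp3* 34.6 ppm in mouse 3 and *Cxcl9* 20.5 ppm in mouse 5. Of these, *Gbp2* alone was the lowest of its group, and the others were the highest.

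In the single cells, per 1e5 UMIs, the epithelial-like sum of mouse D, from 16 cells, was the highest for *Isg15* at 27.7, *Irf1* at 38.8, *Oas3* at 11.1 and *Stat2* at 16.6, and the lowest for *Ifi35* at 0. Other epithelial-like sums that stood apart were those of *Gbp2* in mouse A at 0.26, *Gbp7* in mouse C at 1.55 and *Cxcl9* in mouse G at 1.22. Among mesenchymal-like sums, mouse A stood apart for *Gbp7* at 11.4 and *Cxcl9* at 24.6. Mouse B, with 5 cells, stood apart for *Ubd* at 25.1, and mouse E, with 13 cells, for *Stat2* at 22.2 and *Usp18* at 11.1.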

How the results depend on the processing

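Members called in the epithelium stayed at 0 under every alternative run but 1, no filter on low counts, which called 6, and the replicate block also left 0. Genes called there, 32 as reported, were 159 with DESeq2, 635 without the filter, 1 without the batch term, 3 with the replicate block, 0 in batch a, 5 in batch b and 3 to 41 when 1 sample was left out. In the LCM samples 0 members were called under every alternative, the mouse as a replicate block included, and 2 genes were called without the filter over all zones and between tip and crypt. Between immune-like and epithelial-like cells, the 14 members called became 8 with DESeq2, 9 with 200 to 8000 UMIs and at least 100 genes per cell, 8 by total counts, a scaling chosen after seeing the data, 8 with the mouse as a replicate block, 9 without mouse B, 5 without mouse C, and 5 to 13 when any 1 mouse was left out. Between immune-like and mesenchymal-like cells, 3 became 0 with the block, 1 without doublet gates and 0 to 3 when 1 mouse was left out, with 0 without mouse B or C. Without mouse B or C the immune-like class was 1 sum, assumed to vary like the other classes. *Cxcl9* in mesenchymal-like against epithelial-like cells turned to -2.96 without doublet gates and ranged from -3.12 to 6.25 when 1 mouse was left out. Genes called in the 3 class comparisons (2903, 4499 and 1300) were 1837, 2606 and 376 with DESeq2, 1621, 3188 and 99 with the block, and 1143 to 2870, 2340 to 4381 and 498 to 1263 when 1 mouse was left out. Against epithelial-like cells, the block took members called higher from 7 to 3 in the mesenchymal-like class and from 4 to 2 in the immune-like class, and those called lower in the latter from 10 to 6. Leaving out doublet gates also took those called higher in the mesenchymal-like class from 7 to 3, and those called lower from 15 to 14. Immune-like sums of 68782 and 85121 UMIs, and mesenchymal-like sums from 3988 UMIs, limit what low members can show.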
